A study of Mus musculus with 6 samples.

Results

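A set of 32 germline and meiotic genes was followed by RNA-seq in sorted cells of the adult mouse brain. The genes were chosen by name for their roles in meiosis, germ cells or the testis, with earlier results of these data known. They make up 32 of the 55487 genes in the expression table. The table's gene names matched 31 of them, and Brme1 was matched through a RefSeq synonym, as it is listed there as 4930432K21Rik. The cells came from the subventricular zone (SVZ), a niche of neural stem cells beside the lateral ventricles. The study compared 2 genotypes of the retinoblastoma family, which consists of Rb (gene Rb1), p107 (Rbl1) and p130 (Rbl2), with 3 samples each. The samples labelled THC carried Rb(F/+);p107(+/-);p130(F/+), where F is a floxed allele that Cre can remove, and those labelled TKO carried Rb(F/F);p107(-/-);p130(F/F). The THC samples are therefore not wild type, since they lack 1 copy of p107 in all cells and carry 1 floxed copy each of Rb and p130. All mice also carried NestinCreERT2, a tamoxifen-inducible Cre driven by Nestin sequences, and an R26 EYFP reporter, on a C57BL/6;Sv/129 background. They were 6 to 10 weeks old when tamoxifen gavage began at 200 mg/kg per day for 5 days, and the SVZ was dissected 10 days after dosing ended. Several mice were pooled into a sample to reach at least 200000 YFP-positive cells. YFP marks cells in which Cre had acted and their progeny, so a sample does not hold stem cells alone. The labels put replicate 1 of each genotype in a February batch and replicates 2 and 3 in a November batch, and do not say which step the batch refers to.

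Meiosis reduces the chromosome number of germ cells. Programmed DNA breaks are made by SPO11, single strands invade the homologous chromosome with the help of the recombinase DMC1, and the synaptonemal complex zips the paired chromosomes together along their axes. In parallel, germ cells use RNA-binding proteins such as DAZL and DDX4 to control their transcripts and piRNAs, small RNAs bound by PIWI proteins, to silence transposons. In somatic cells most of these genes are kept silent by DNA methylation and by repressor complexes, among them a Polycomb complex that contains E2F6. The Rb family binds E2F transcription factors and represses their target genes, many of which act in DNA replication and repair.

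Of the 32 genes, 10 were higher in TKO than in THC and none was lower. These were Rbm44, Meiob, Tex15, Tex11, Meioc, Dmc1, Msh5, Brme1, Syce2 and Psmc3ip. The 10 are 31.2% of the set and 58.8% of its 17 genes tested. Of all 17278 genes tested, 14.3% were higher in TKO and 13.6% were lower, or 27.9% in either direction (limma with batch as a term, adjusted p under 0.05). The set was chosen with earlier results of these data known, so its share is a description and no independent support. All 3 TKO samples lay above all 3 THC samples in 12 of the 17 genes of the set that were tested, against 19.4% of all genes tested. The 12 include each of the 10, which were called on these same values, so their separation is no added support. Beyond the 10, 7 genes were tested and did not pass the threshold. Another 14 had reads but were below the level filter, and Syce1 had no read in any library. The filter asked for a normalized count of at least 10 in at least 3 samples, and Rbm44, Meiob, Meioc and Tex11 passed it through the TKO samples, with no more than 1 THC sample at 10. Their test was therefore open only because they were high in TKO, as was that of Slc25a31, which did not pass. With no filter beyond 1 read in any sample, 10 of the 31 genes with a read were higher in TKO, against 7.12% of the 32018 genes with a read, and none was lower (6.27% of all). An edgeR quasi-likelihood test of the reads called the same number of members higher with the filter (10, against 13.7% of all genes tested) and without it (10, against 8.52%). Of the 10, 7 rose by at least 2 on the log2 scale, or 21.9% of all 32 genes of the set, against 2.16% of all genes tested. The 7 include Rbm44, Meiob, Meioc and Tex11, whose test was open only because they were high in TKO. The rest of the 7, Dmc1, Msh5 and Tex15, were at 10 or more in every THC sample. The contrast with all genes is therefore no added support. Changes are differences of log2(normalized count + 1), TKO minus THC, and understate the change of genes with few reads.

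**Figure D1:**
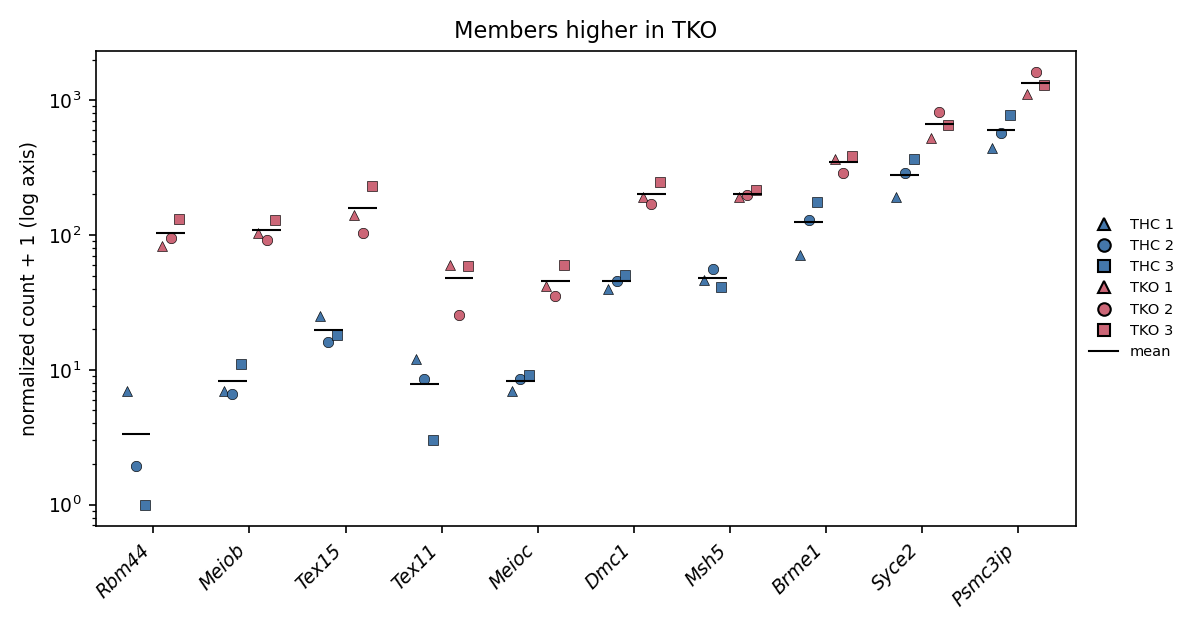
Normalized count + 1 on a log axis for the 10 genes higher in TKO, ordered by the size of the change. Blue points are THC and red points are TKO libraries, the symbol gives the replicate number, and the black line is the mean of 3 libraries. The red points lie above the blue points for every gene, from Rbm44 (0 to 6.01 in THC and 81.98 to 130.4 in TKO) to Psmc3ip (445 to 783 and 1111 to 1609).

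Depth was similar in all libraries, at 15536084 to 16961817 reads assigned to genes. Of the targeted genes, Rbl1 was low in every TKO library, at 14.5 to 41.97 normalized counts against 497 to 646 in THC (log2 change -4.56, SE 0.310, limma adjusted p = 2.3e-06). Rb1 was higher in TKO (log2 change 0.82, limma adjusted p = 0.0006561) and Rbl2 did not pass the test (log2 change -0.13, limma adjusted p = 0.5437). The labels do not name the floxed exons, so counts over the whole gene do not check the loss of Rb and p130. The neural stem cell and astrocyte markers were abundant in both genotypes, with summed normalized counts over 8 genes of 96097 to 164605 in THC and 102608 to 136311 in TKO. Of the 8, Gfap (log2 change 2.01) and Nes (1.21) were higher and Aldoc (-2.35) and Id3 (-0.61) were lower. Markers of other cell types moved with the genotype: 6 of 7 oligodendrocyte markers were lower in TKO (summed 75032 to 85234 in THC and 12458 to 21831 in TKO), as were 5 of 6 endothelial markers (4013 to 9411 and 1956 to 2577) and 6 of 7 neuroblast and neuron markers (13854 to 17746 and 7566 to 9084). Microglial markers had 3 of 8 genes higher (939 to 4035 and 1283 to 5981), and ependymal markers 1 of 15 higher and 2 lower (5519 to 16467 and 7460 to 10058). Each of these marker genes had reads. The part of these shifts in the results below was not tested. In pooled sorted cells, a gene used by fewer cells and a gene with less RNA per cell cannot be told apart.

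Genes of meiotic recombination held most of the rises. Of the 9 in the set, 6 were higher in TKO, Mnd1 did not pass the test, and Spo11 and Msh4 were below the filter. The 6 are 66.7% of the 9 and 85.7% of those tested, against 14.3% of all genes tested. Dmc1 (chromosome 15, 79561497 to 79605109) encodes the meiosis-specific recombinase that carries out strand invasion between homologous chromosomes. It had 39.09, 44.39 and 49.49 normalized counts in THC 1, 2 and 3, and 190.3, 168.7 and 244.3 in TKO 1, 2 and 3. The groups were far apart, with a mean of 44.32 ± 5.20 (SD, n = 3) in THC and 201.1 ± 38.95 in TKO. The change was 4.43-fold (log2 2.15, SE 0.259, limma adjusted p = 8.0e-05). Msh5 (chromosome 17, 35028605 to 35046745) encodes a partner of MSH4 that stabilises crossover intermediates. It was at 45.11, 54.77 and 40.4 in THC and 191.3, 198.8 and 216.3 in TKO, a narrow spread within each genotype. It rose 4.28-fold (log2 2.10, SE 0.25, limma adjusted p = 7.1e-05).

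Meiob and Tex15 started from lower levels and rose further. Meiob (chromosome 17, 24804289 to 24839788) encodes a single-strand DNA-binding protein that acts on resected meiotic breaks. It had 6.01, 5.67 and 10.1 normalized counts in THC and 102.5, 91.4 and 127.5 in TKO, so that every TKO library held at least 85 reads where no THC library held more than 10. The change was 13.3-fold (log2 3.74, SE 0.394, limma adjusted p = 3.0e-05). Tex15 (chromosome 8, 33516738 to 33585582) is needed in spermatocytes to load recombinases on breaks and also takes part in transposon silencing. Its values were 24.06, 15.11 and 17.17 in THC and 140.5, 103.2 and 231.8 in TKO. TKO 3 was the highest and the TKO libraries spread over a wider range than for Dmc1 or Msh5, with no overlap with THC. Tex15 rose 7.76-fold (log2 2.96, SE 0.366, limma adjusted p = 9.8e-05).

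Brme1 and Psmc3ip were already well expressed in THC. Brme1 (chromosome 8, 84148025 to 84172590), which encodes a partner of the meiotic BRCA2 localizer HSF2BP, had 70.17, 128.4 and 175.7 normalized counts in THC and 364, 289.1 and 387.3 in TKO. It rose 2.93-fold (log2 1.55, SE 0.267, limma adjusted p = 0.001057), and the THC 1 library was the lowest of all 6. Psmc3ip (HOP2; chromosome 11, 101091823 to 101095436) forms a complex with MND1 that assists the recombinases. It was at 445, 573 and 783 in THC and 1111, 1609 and 1300.0 in TKO, a 2.26-fold rise (log2 1.18, SE 0.154, limma adjusted p = 0.0001478). The exons of Psmc3ip and of Mlx overlap by 385 bases on opposite strands, and the libraries do not keep the strand. Mlx was not called (log2 change -0.16, limma adjusted p = 0.4443). Mnd1, the partner of Psmc3ip, had 50.12, 41.55 and 74.73 normalized counts in THC and 90.8, 104.2 and 86.92 in TKO. Its TKO values all lay above its THC values, but the difference did not pass the test (log2 change 0.79, SE 0.304, limma adjusted p = 0.07359). It passed when THC 3, the highest THC library, was left out (log2 change 1.03, limma adjusted p = 0.03797). Spo11, which makes the breaks that start meiotic recombination, had 1, 7 and 0 reads in THC and 8, 3 and 0 in TKO. Msh4 had 7 reads over the THC libraries and 12 over the TKO libraries, while its partner Msh5 had 143 and 605.

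The sequences around or just before the start sites of 4 of the recombination genes that rose are shown because 3 of them hold an E2F-type motif and the other does not. The Rb family acts through E2F factors, which makes this motif the one of interest here. Capitals mark matches to TTCCCGCC, TTTCCCGC or TTTGGCGC on either strand. Each stretch is written 5′ to 3′ on the strand of the gene, from RefSeq promoter windows of build GRCm38: chr8:84147948-84148047 (plus strand) for Brme1, chr15:79605100-79605199 (minus) for Dmc1, chr17:35046668-35046697 (minus) for Msh5 and chr11:101095436-101095535 (minus) for Psmc3ip.
Brme1: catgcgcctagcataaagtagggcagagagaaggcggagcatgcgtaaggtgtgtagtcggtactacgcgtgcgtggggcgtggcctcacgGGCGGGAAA
Dmc1: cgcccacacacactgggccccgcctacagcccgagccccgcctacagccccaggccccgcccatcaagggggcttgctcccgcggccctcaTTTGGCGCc
Msh5: gacggaaaaGGCGGGAAAgtgctgcgaatt
Psmc3ip: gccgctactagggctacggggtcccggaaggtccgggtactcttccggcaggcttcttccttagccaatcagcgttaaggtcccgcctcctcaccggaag

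In Brme1 and Msh5 the marked run holds 2 overlapping motifs on the reverse strand, and in Dmc1 it is the single motif TTTGGCGC. The match begins 2 bases after the start site in both Brme1 and Dmc1, and 66 bases before it in Msh5. No match was found in the window of Psmc3ip, and this says only that these letters are not in this window.

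Among the 8 genes of the synaptonemal complex and chromosome axis, Syce2 and Tex11 were higher in TKO. They are 25% of the 8, of which only 3 were tested, against 14.3% of all genes tested. This count is too small to set apart from the share over all genes. Syce2 (chromosome 8, 84872111 to 84888221) encodes a protein of the central element, the middle of the complex. It had 189.4, 286.1 and 363.6 normalized counts in THC and 522, 813 and 652 in TKO, a 2.41-fold rise (log2 1.27, SE 0.167, limma adjusted p = 0.0001625). Tex11 (X chromosome, 100838648 to 101059667), which promotes crossovers and pairing of chromosomes in spermatocytes, had 11.03, 7.56 and 2.02 in THC and 58.56, 24.72 and 57.95 in TKO. TKO 2 was lower than the other TKO libraries by more than the range of the THC values, yet still above all of THC. Tex11 rose 6.62-fold (log2 2.73, SE 0.547, limma adjusted p = 0.002993).

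The other building blocks of the complex did not show such a rise. Sycp2, a protein of the lateral element, had 53.13, 41.55 and 18.18 normalized counts in THC and 17.57, 10.75 and 15.45 in TKO. All TKO values were below all THC values, and the difference narrowly missed the threshold (log2 change -1.21, SE 0.452, limma adjusted p = 0.06624). It passed without THC 3 (log2 change -1.58, limma adjusted p = 0.03165), and in an edgeR quasi-likelihood test with no filter (log2 change -1.33, adjusted p = 0.02323, where 8.04% of all genes were called lower). Its unadjusted p was 0.02044, and it was the only gene of the set with an unadjusted p under 0.05 in the downward direction. With the filter, edgeR called no gene of the set lower (14.0% of all genes). DESeq2 was run without the filter and gave an adjusted p to 18 of the 32 genes, none of them lower (12.3% of the 18982 genes with an adjusted p) and 10 of them higher (13.0%). Sycp3, the other lateral element protein, had 16 reads in all over the THC libraries and 16 over the TKO libraries. Sycp3 shares 660 bases of exon with Chpt1 on the opposite strand, a gene that was lower in TKO (log2 change -1.12, limma adjusted p = 0.0001203), and reads of the 2 genes cannot be told apart there. Sycp1, which spans the gap between the lateral elements, had 1 read in THC 2 and 1 in TKO 3. Syce1, the central element partner of Syce2, had no read, which allows up to 3 reads per library. Hormad1, which marks chromosome axes that have not yet paired, had 2 reads, both in TKO 2, and Hormad2 had 4 reads over THC and 6 over TKO. So Syce2 was the only structural protein of the complex in the set that was higher in TKO.

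Hormad1 is shown because its promoter holds the same type of motif as Brme1 and Msh5 although the gene was at or near 0. The stretch is chr3:95559547-95559666 of GRCm38 (plus strand, RefSeq), with the match in capitals.
Hormad1: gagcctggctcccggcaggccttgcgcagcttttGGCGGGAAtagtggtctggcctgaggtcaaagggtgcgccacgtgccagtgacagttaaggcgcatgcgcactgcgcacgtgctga

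Rbm44 and Meioc rose among the 6 genes that regulate germ cell RNA or license meiosis. They are 33.3% of the 6, against 14.3% of all genes tested, and each passed the filter only through the TKO samples. This count is too small to set apart from the share over all genes. Rbm44 (chromosome 1, 91145089 to 91170795) encodes an RNA-binding protein of the bridges that join dividing germ cells. It had 6, 1 and 0 reads in THC and 84, 87 and 135 in TKO, or 6.01, 0.944 and 0 normalized counts against 81.98, 93.5 and 130.4. THC was near the limit of detection and TKO was not, with 7 reads against 306 over the 3 libraries of each genotype. Rbm44 had the largest log2 change of the 10 genes (5.40, SE 0.615, limma adjusted p = 5.2e-05). With so few THC reads the size of this change depends on the pseudocount: it was 3.93 with a pseudocount of 5. It also depended on the February pair, since the November libraries alone gave 6.32, as did leaving out THC 1 or TKO 1. Meioc (chromosome 11, 102663716 to 102682237), whose product works with YTHDC2 to hold germ cells in the meiotic programme, had 6.01, 7.56 and 8.08 normalized counts in THC and 40.99, 34.39 and 58.91 in TKO. It rose 5.47-fold (log2 2.45, SE 0.441, limma adjusted p = 0.001468).

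Dazl and Ddx4, the RNA-binding protein and the RNA helicase by which germ cells are usually recognised, were not called in either direction. Dazl had 4.01, 15.11 and 23.23 normalized counts in THC and 12.69, 9.67 and 6.76 in TKO, and the groups overlapped (log2 change -0.26, SE 0.624, limma adjusted p = 0.7993). Its direction was not stable, at 1.45 within February and -1.12 within November. Ddx4 had 20.05, 19.83 and 10.1 in THC and 8.78, 4.30 and 12.56 in TKO (log2 change -0.93, SE 0.561, limma adjusted p = 0.2507). Stra8, which drives entry into meiosis, had 1 read in THC 3 and none elsewhere. Taf7l, a germ cell form of a general transcription factor subunit, had 13 reads over THC and 18 over TKO.

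Of the 5 genes of the piRNA pathway, only Tdrkh could be tested, and it was not called. The other 4 were below the filter. Tdrkh, which helps to trim piRNAs at the mitochondrial surface, was abundant in both genotypes, with 1460.4, 1299.5 and 1825 normalized counts in THC and 1657, 2115 and 1613 in TKO. The groups overlapped (log2 change 0.24, SE 0.155, limma adjusted p = 0.2953). Its exons share 2255 bases with Oaz3 on the opposite strand, but Oaz3 itself was at 8.08 to 35.7 normalized counts. Piwil2, a PIWI protein, had 24 reads over THC and 14 over TKO. Tdrd9, a helicase of transposon silencing, had 22 reads in THC and 8 in TKO, and Mael, which acts in the same process, had none in THC and 3 in TKO. Tdrd1, a scaffold for PIWI proteins, had 22 reads in THC and 3 in TKO, of which 18 were in THC 3, and 18.18 normalized counts there was the highest value of any gene of the set below the filter.

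The remaining 3 testis proteins and the telomere protein Majin complete the set. Slc25a31, a testis ADP/ATP carrier of mitochondria, had 7.02, 7.56 and 9.09 normalized counts in THC and 10.74, 21.49 and 15.45 in TKO, with every TKO value above every THC value. The difference did not pass the test (log2 change 0.88, SE 0.504, limma adjusted p = 0.2249). Tex14, a protein of the intercellular bridge that RBM44 also belongs to, had 12.03, 0.944 and 14.14 in THC and 6.83, 10.75 and 7.73 in TKO. Unlike Rbm44, its groups overlapped (log2 change 0.36, SE 0.782, limma adjusted p = 0.7823), and the sign followed THC 2, without which the change was -0.65. Tex101, a testis cell-surface protein, had 1 read over THC and 2 over TKO. Majin, which tethers telomeres to the nuclear envelope in meiosis, had 10 and 3.
The Tex14 promoter is shown because, like that of Hormad1, it holds an E2F-type match in a gene that was not called (chr11:87404935-87405054 of GRCm38, plus strand, RefSeq; match in capitals).
Tex14: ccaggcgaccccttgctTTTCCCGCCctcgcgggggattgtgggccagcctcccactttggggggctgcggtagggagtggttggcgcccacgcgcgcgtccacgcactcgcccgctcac

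**Figure D2:**
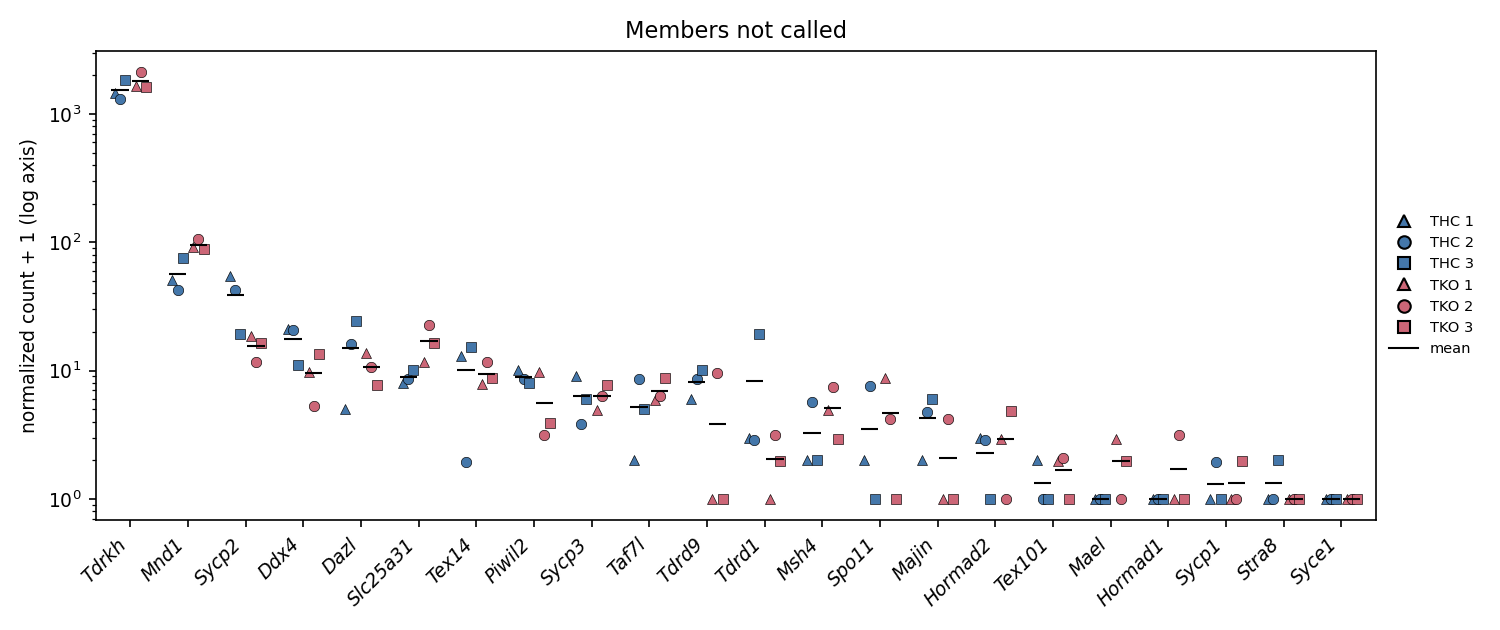
Normalized count + 1 on a log axis for the 22 genes of the set that were not higher in TKO, ordered by their total. Blue points are THC and red points are TKO libraries, the symbol gives the replicate number, and the black line is the mean of 3 libraries. Apart from Tdrkh, near 1300 to 2115 in both genotypes, all lie at or below 104.2, and Syce1 sits at 0 in every library.

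The 15 genes below the filter together held 31, 48 and 50 reads in THC 1, 2 and 3, and 35, 37 and 27 in TKO 1, 2 and 3. These sums overlapped between the genotypes. A gene at 10 or more in all 3 TKO libraries passes the filter and so cannot be in this group. The overlap therefore sets up no contrast with the 10 genes that rose. Summed over libraries, 7 of the 15 had more reads in TKO, 5 had fewer and 3 had as many. Of them, 6 had fewer than 10 reads in all 6 libraries together, and differences of this size are not detectable at this depth.

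Per length of exon, the 10 genes covered a wide range of levels. In TKO, Psmc3ip was highest at 45.3 ± 7.80 (SD, n = 3) RPKM (reads per kilobase of exon, scaled to the reads of each library), followed by Syce2 at 20.7 ± 4.25 and Brme1 at 8.90 ± 1.55. Dmc1 was at 5.11 ± 1.15, Meiob at 3.68 ± 0.750 and Msh5 at 2.26 ± 0.204. Tex15 (1.02 ± 0.459), Rbm44 (0.967 ± 0.268), Tex11 (0.805 ± 0.344) and Meioc (0.601 ± 0.189) were lowest and lay within each other's spread. In THC the same scale ran from 20.5 ± 6.06 for Psmc3ip to 0.0218 ± 0.0303 for Rbm44. The levels of the genes that rose most were therefore low even in TKO, and the 3 genes with the smallest changes were the 3 with the highest levels. This order is partly set by the selection, since a gene near 0 in THC can pass the filter and the test only with a large change.

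The batches gave the same direction for all 10 genes. In February, with 1 library per genotype and no test, the log2 changes ran from 1.32 for Psmc3ip to 3.88 for Meiob. In November, with 2 libraries per genotype, they ran from 1.11 for Psmc3ip to 6.32 for Rbm44. Brme1 had 2.36 in February and 1.15 in November, and Rbm44 3.56 and 6.32. A limma interaction of genotype and batch was past an adjusted p of 0.05 for none of the 17 genes of the set that were tested and for 0.341% of all genes tested. At an unadjusted p of 0.05 it was past the threshold for 3 of the set, Brme1, Rbm44 and Dazl, and for 6.97% of all genes tested. In the authors' deposited table, the genes of the set with an adjusted p under 0.05 were the same 10. In the authors' deposited table the adjusted p was 0.07905 for Mnd1 and 0.07946 for Sycp2.

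**Figure D3:**
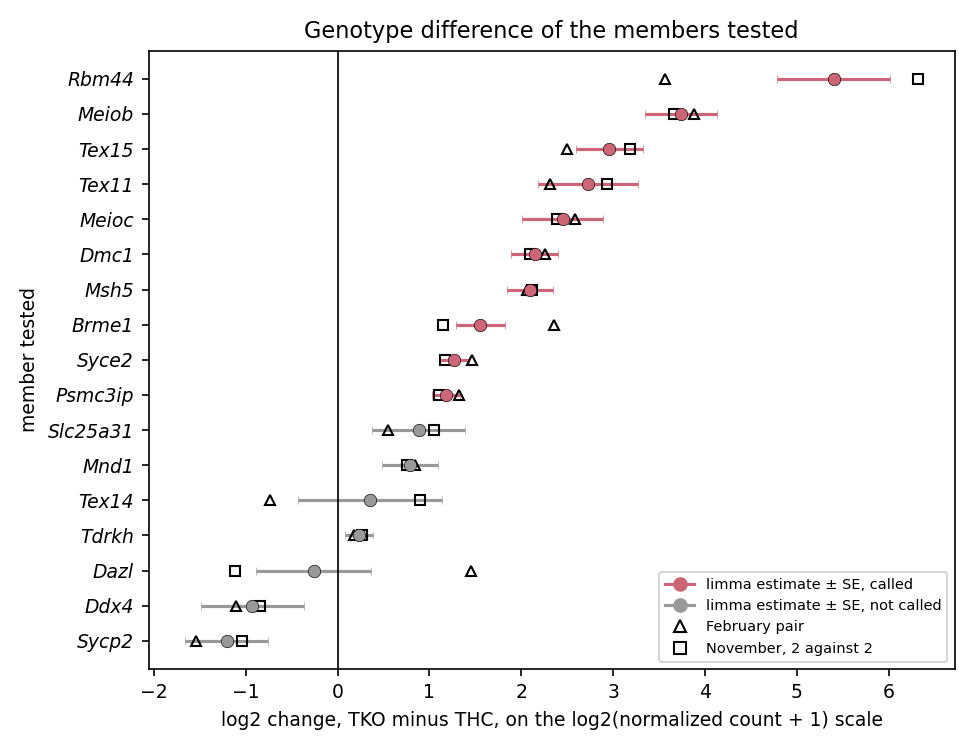
Log2 change, TKO minus THC, on the log2(normalized count + 1) scale for the 17 genes of the set that were tested. Filled points with bars are the limma estimate ± SE over both batches (red: adjusted p under 0.05, grey: not), open triangles are the February pair and open squares the November libraries. All red points, from 1.18 for Psmc3ip to 5.40 for Rbm44, have both open symbols on the right of 0, while for Dazl and Tex14 the batches fall on opposite sides.

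Meiotic genes outside the set were counted in the same way from a list of 38, also chosen with earlier results of these data known. Of these, 11 were higher in TKO, 1 was lower, 10 were tested without passing and the rest were below the filter. The 11 are 28.9% of the list and 50% of the 22 tested, against 14.3% of all genes tested. The median log2 change of the 22 was 1.25, against -0.00032 over all genes tested. Ccna1, the germ cell A-type cyclin, rose from 56.13, 89.7 and 101 normalized counts in THC to 687, 655 and 749 in TKO (log2 change 3.11, SE 0.203, limma adjusted p = 1.8e-06). Stag3, a meiotic cohesin subunit, had 237.6, 187 and 148.5 in THC and 722, 701 and 707 in TKO (log2 change 1.92, limma adjusted p = 9.5e-06). Smc1b, another meiotic cohesin subunit, picked for display after its values were seen, had 11.03, 17.94 and 29.29 and then 157.1, 142.9 and 200.9 (log2 change 3.13, limma adjusted p = 4.1e-05). Other cohesin genes of the list did not pass: Rec8 was not called (log2 change 1.32, limma adjusted p = 0.2151), with 95.6 normalized counts in TKO 3 against 18.54 and 8.60 in TKO 1 and 2, and Rad21l had 2 reads over THC and 4 over TKO. Cntd1, a crossover factor picked in the same way, rose by 3.02 (limma adjusted p = 1.7e-05). Fignl1, which regulates recombinase filaments, and Sgo2a, which protects centromeric cohesion, rose by 1.79 and 1.61 on the log2 scale (limma adjusted p = 4.1e-06 and 1.6e-05). Mlh3, an endonuclease subunit that resolves crossovers and also serves mismatch repair, was the gene that fell (log2 change -0.59, limma adjusted p = 0.02358).

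The recombination machinery that somatic cells share was also higher in TKO, with 16 of 19 genes up, none down and a median log2 change of 1.24. All 19 were tested, and the 16 are 84.2% of them, against 14.3% of all genes tested. Of the tested recombination genes of the set, 85.7% were higher. Brca1, which promotes repair by recombination, rose by 1.87 (limma adjusted p = 1.8e-06). Dmc1 rose by 2.15, and the difference between the rises of meiotic and somatic genes was not tested.

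Of 21 genes of germ cell identity and spermatogonia, with Dazl and Ddx4 left out, only 9 were tested. Of these, 2 were higher, or 22.2% of those tested and 9.52% of the list, against 14.3% of all genes tested. Another 1 was lower, against 13.6% of all genes tested. These counts are too small to set apart from the shares over all genes. The median log2 change of the 9 was -0.43. The 2 that rose were the transcription factor genes Tfap2c (log2 change 1.39, limma adjusted p = 0.001858) and Prdm1 (log2 change 1.40, limma adjusted p = 0.005448), which act in primordial germ cells but also in other cell types. Prdm14, Dppa3 and Pou5f1, known markers of early germ cells or pluripotent cells, had no read in any library, nor had Fgf8 and Rhox13. Below the filter, Lhx1 had 0 reads over THC and 23 over TKO, and Sohlh2 had 11 and 0, each without overlap of the genotypes. Nanos2 had 10 and 3, Lin28a 4 and 5, Sall4 2 and 0, and Sohlh1 and Utf1 each 0 and 1. The tested genes without a call all had reads in every library: Gfra1, Kit, Zbtb16, Dnd1, Nanos3 and Nanog. Gfra1, a GDNF co-receptor, had 6830 reads over THC and 5812 over TKO, and Kit had 698 and 474. Zbtb16 had 354 and 216, Dnd1 51 and 28, Nanog 50 and 45, and Nanos3 35 and 26. Upp1 was lower (log2 change -0.88, limma adjusted p = 0.007748). Among 18 other piRNA genes, 9 were tested. Of these, 1 was higher (11.1% of those tested, against 14.3% of all genes tested) and 1 was lower (against 13.6%). Btbd18, a regulator of piRNA precursor transcription, was higher (log2 change 1.62, limma adjusted p = 0.008122, or 0.05296 without TKO 3). The helicase gene Ddx25 was lower (log2 change -0.94, limma adjusted p = 0.0008339). The median log2 change of the 9 piRNA genes tested was 0.44.

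Genes of later or neighbouring testis and ovary cell types were mostly absent or low. Of 24 spermatid and sperm genes, only 4 were tested and 2 were higher. The 2 are 50% of those tested and 8.33% of the list, against 14.3% of all genes tested. Adam2, a sperm surface protein, had 26.06, 14.17 and 11.11 normalized counts in THC and 103.5, 121.4 and 123.6 in TKO (log2 change 2.78, SE 0.362, limma adjusted p = 0.000148). Dkkl1, a protein of the acrosome, had 0, 5.67 and 2.02 in THC and 12.69, 11.82 and 25.11 in TKO (log2 change 2.61, limma adjusted p = 0.01428). Dkkl1 too passed the level filter only through the TKO libraries. The call of Dkkl1 was lost in 4 settings, with a limma adjusted p of 0.07273 without THC 1, 0.124 without TKO 1, 0.0629 without TKO 3 and 0.07743 in November alone. The protamine genes Prm1 and Prm2, which pack sperm DNA, had no read, nor had Akap4, Catsper1 and Odf1. Of 16 oocyte genes, only 3 were tested, and none of the 3 was higher (14.3% of all genes tested). Gdf9 was lower (log2 change -0.73, limma adjusted p = 0.04303), a call that 11 of 17 alternative settings lost, with adjusted p up to 0.2083. Zp2 was above THC in every TKO library but did not pass (log2 change 1.41, limma adjusted p = 0.06739). Padi6, below the filter, had 0 reads over THC and 12 over TKO. Of 14 Sertoli and Leydig genes, only 4 were tested. None of the 4 was higher and Lhcgr was lower (log2 change -1.19, limma adjusted p = 0.009371). With so few genes tested, the lack of rises in these lists says little.

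**Figure D4:**
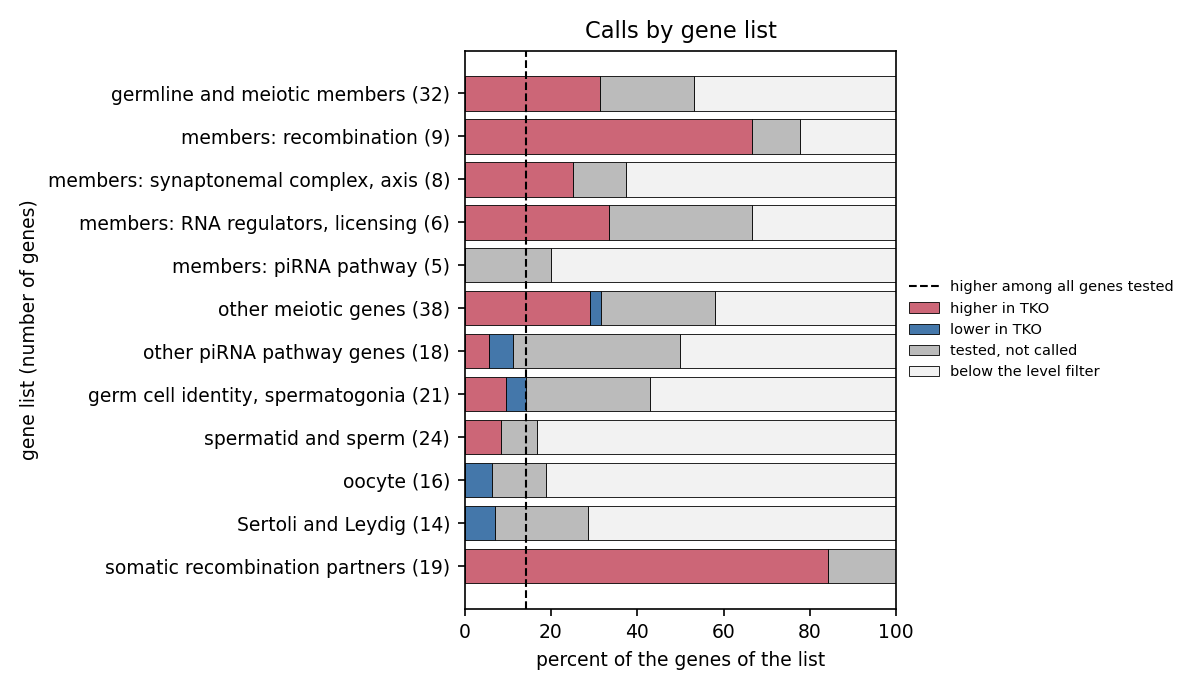
Percent of the genes of 12 lists that were higher in TKO (red), lower (blue), tested and not called (grey) or below the level filter (white), with the number of genes in parentheses. The dashed line is the 14.3% of all genes tested that were higher. Of the 12 lists drawn, recombination genes of the set and the somatic recombination genes have the widest red bars (6 of 9 and 16 of 19), and the piRNA genes of the set, oocyte and Sertoli and Leydig lists have none.

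A list of 29 chromatin and DNA methylation regulators was measured as well, most of which take part in silencing germline genes. It also holds the demethylase genes Tet1, Tet2 and Tet3, which are not repressors of this kind. The Tet genes and Wdr5 were not called. Of the 29, 8 were higher in TKO (27.6%, against 14.3% of all genes tested) and 1 was lower, with a median log2 change of 0.22. Genes that act on DNA methylation were among the 8: Uhrf1 from 1195.8, 1325.0 and 1799 normalized counts to 4688, 5136 and 4878 (log2 change 1.79, limma adjusted p = 4.4e-06), the maintenance methyltransferase Dnmt1 by 0.98 (limma adjusted p = 0.001279) and the helicase gene Hells by 1.40 (limma adjusted p = 0.0002077). Hells was also counted among the somatic recombination genes. E2f6 had 1209, 1015 and 1201 in THC and 1609, 1931 and 1365 in TKO (log2 change 0.51, limma adjusted p = 0.02388), a call lost without THC 2 (adjusted p = 0.08851), without TKO 2 (adjusted p = 0.1301) and in November alone (adjusted p = 0.05163). Its Polycomb partner L3mbtl2 rose by 0.52 (limma adjusted p = 0.03491), a call lost in 8 of 17 alternatives, with an adjusted p of 0.2333 without THC 1, 0.0918 without THC 2, 0.241 without TKO 1 and 0.09312 without TKO 2. Mga and Pcgf6, further subunits of that complex, had log2 changes of 0.02 and -0.05 (limma adjusted p = 0.9368 and 0.8139). The histone methyltransferase gene Setdb1 changed by 0.10 (limma adjusted p = 0.6357) and the de novo methyltransferase genes Dnmt3a and Dnmt3b by -0.13 and 0.39 (limma adjusted p = 0.5092 and 0.2259), none of which passed. Ring1 was the gene that fell (log2 change -0.82 in limma). Of 17 Rb family and E2F genes, which include E2f6, 13 were higher (76.5%, against 14.3% of all genes tested) and Rbl1 was lower. Among the rises, the smallest adjusted p values were those of E2f8 (log2 change 2.34), Mybl1 (3.24) and E2f7 (2.00).

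Promoter windows of 300 bases (250 before the start site to 50 after it, RefSeq, GRCm38) were found for 25 of the 32 genes, 6 of them among those that rose. Rbm44, Meiob, Tex15 and Tex11, the genes with the largest rises, had no window. An E2F-type motif (TTCCCGCC, TTTCCCGC or TTTGGCGC on either strand, the first 2 of which can overlap) was present in 5 of the 6 with a window that rose: Brme1, Dmc1, Meioc, Msh5 and Syce2. It was present in 5 of the other 19 (26.3%): Ddx4, Hormad1, Slc25a31, Sycp3 and Tex14. Of all 27025 genes with a window 3.69% had a match, of the 12151 tested genes 6.56%, and of the 1846 genes higher in TKO 14.1%. The E-box CACGTG was present in 1 of the 6 that rose (Syce2), 9 of the other 19 (47.4%) and 8.09% of all genes. The CRE motif TGACGTCA was in none of the 25 windows and in 2.03% of all genes. The CHR motif TTTGAA was in none of the 6, in 3 of the 19 and in 20.2% of all, and CCAAT was in 3 of the 6, 8 of the 19 and 41.1% of all. CpG dinucleotides were common in these windows, with a median of 27.5 (18 to 33) in the 6 that rose and 19 (6 to 38) in the other members, against 8 over all genes with a window and 21 over those tested. These matches describe the sequence and were not tested against the changes, and the members with a match include genes, such as Hormad1, that were near 0 in both genotypes.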

How the data were processed

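The deposited table holds a normalized count per gene and sample, a signal that the authors scaled by 1 factor per sample. It also holds the authors' mean signal, log2 fold change with its standard error, test score, unadjusted p-value, adjusted p-value and weight, a score used in the adjustment, per the file headers. HISAT2, Subread's featureCounts, DESeq2 and the build GRCm38 are named in the submitters' processing notes. Tool versions, the annotation and the treatment of shared reads are not given in the sources used. Per the labels' protocols, at least 35 ng of RNA (quality number at least 8.0) was made into libraries with SMART-Seq v4 and Nextera XT, which do not mark the strand. Within a column, 100% of values were whole multiples of 1 step (0.944 to 1.075) within 0.001 read, and dividing by it gave reads. No library was a duplicate of another of its genotype (chi-square per degree of freedom 15.5 to 43.7). The submitters describe the samples as biological replicates.

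Because the values are normalized, limma 3.58.1 (R 4.3.3) with an intensity trend was fitted to log2(normalized count + 1) with batch and genotype, for genes at 10 or more in at least 3 samples. Benjamini-Hochberg adjustment ran over 17278 genes, with 3 residual and 8.9 prior degrees of freedom, and genes were called at an adjusted p under 0.05. The test was checked on simulated data. It called 19.4% of the 1.5-fold changes, 59.7% of the 2-fold changes and 89.4% of the 4-fold changes. Genes at the lowest levels were given no change, so the power for genes such as Dazl and Ddx4 was not measured. edgeR 4.0.16 on the reads, DESeq2 1.42.0 on the reads of all genes with a read (its own filter), other pseudocounts, filters and scaling, no batch term, a replicate block, November alone and leaving out each library were alternatives. The edgeR test without a filter was added after seeing the data. Gene spans and exon lengths are from GENCODE M21 (GRCm38), and promoters from RefSeq (GRCm38.p6); a gene with several windows counts if any holds the motif.

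The members and lists were chosen with earlier results of these data known. All members are named. Of other lists, the targeted genes, 9 repressors and at most 4 called genes per list with the smallest adjusted p are named. Genes outside this rule (Smc1b, Cntd1, Mlh3, Rec8, Rad21l, the other germ cell identity genes, Zp2, Padi6, the 4 stem cell markers, the Tet genes with Wdr5, and those listed as having no read) were picked after their values were seen. From the somatic recombination list, 1 gene is not reported here.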

Additional observations from a re-analysis of the deposited data

How the results depend on the processing

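Over 17 alternatives, 16 of them planned, the 10 genes called higher stayed higher and past an adjusted p of 0.05 in each, with the highest adjusted p at 0.02681 for Tex11. The count of genes of the set called higher ran from 10 to 11 when each library was left out, and was 10 in the other alternatives. The count called lower was 0, and ran from 0 to 1 when each library was left out, with 1 (Sycp2) without THC 3. It was also 1 (Sycp2) in edgeR with no filter. Over all genes, 1890 to 2727 were higher and 1637 to 2575 lower. The limits are the 3 samples per genotype, the single February pair, and depth: genes with under 10 reads in all libraries could not be compared.

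The replicate numbers were not taken as pairs, since the deviations of same-numbered samples correlated at 0.231, -0.106 and 0.141. A replicate block in place of batch gave 10 genes of the set higher and 0 lower, and 2147 higher and 1922 lower over all genes.

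Among genes named, 6 that did not pass changed sign, and the cause was not tested. When each library was left out, Dazl ran from -1.118 to 0.151 (above 0 without THC 3 or TKO 3), Tex14 from -0.646 to 1.046 (below 0 without THC 2) and Mga from -0.086 to 0.158 (below 0 without THC 2, THC 3 or TKO 3). Rbl2 ran from -0.252 to 0.016, Pcgf6 from -0.140 to 0.059 and Dnmt3a from -0.186 to 0.014, each above 0 without THC 1 or TKO 1. November alone gave the same values, 0.016 for Rbl2, 0.059 for Pcgf6 and 0.014 for Dnmt3a, because leaving out 1 February library leaves the other to the batch term. Tex14 was at -0.091 in edgeR, -0.074 in DESeq2 and -0.079 in edgeR with no filter.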
